A study of Mus musculus with 6 samples.

Results

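The annotation that the authors deposited with the counts holds 22796 nuclei of the mouse suprachiasmatic nucleus (SCN), and 7363 of them carry the name of early SCN neurons. These 7363 nuclei were the members, and each was placed in its library by its barcode. At gestational day (GD) 17.5 there were 4048 of them, and at postnatal day (PND) 2 there were 3315. No nucleus of PND10 or PND30 carries this name.

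The SCN is the central circadian clock of mammals, a pair of small nuclei at the base of the hypothalamus, and most of its neurons release the inhibitory transmitter GABA. In the adult its neurons are grouped by the neuropeptides they make, among them arginine vasopressin (Avp), vasoactive intestinal peptide (Vip), cholecystokinin (Cck) and neuromedin S (Nms). The neurons are born before birth, and synapses and peptide expression mature largely after it. In single-nuclei RNA sequencing (snRNA-seq), RNA is counted in isolated nuclei, each marked by a barcode. Every molecule also bears a tag of its own, the unique molecular identifier (UMI), and PCR copies of it count as 1.

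All mice were wild-type C57BL6/J of both sexes, and the SCN was micro-dissected in the early light phase. Each stage was a pool of 10 fetuses or pups from at least 5 mothers, with 1 library at GD17.5, 1 at PND2 and 2 each at PND10 and PND30. Stage, pool and library therefore cannot be told apart at GD17.5 and PND2, and no comparison between these stages has a replicate check. Intervals below are exact at the 95% level and cover counting error only. Matrix rows, each standing for a gene, carry no gene names in the files used here. The neuronal marker Syt1, the GABA-synthesis enzyme Gad1 and the SCN transcription factor genes Rorb, Six3 and Lhx1 could thus not be looked up, and the name of the cluster rests on the annotation of the authors.

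Early SCN neurons made up 82.3% of the 4921 annotated nuclei at GD17.5 (Clopper-Pearson interval 81.2% to 83.3%) and 59.7% of the 5555 nuclei at PND2 (58.4% to 61.0%). In the same libraries the Vip+ neurons went from 236 nuclei (4.80%) to 1262 (22.7%), and the Avp+ neurons from 8 nuclei (0.163%) to 46 (0.828%). Immature astrocytes and ependymal cells, here called immature astroglia, went from 489 nuclei (9.94%) to 664 (12.0%). No nucleus of either early stage was annotated as Cck+, Nms+ or extra-SCN, the last being neurons from outside the SCN. The barcode lists of the 2 early libraries shared 83 barcodes, of which 3 were annotated nuclei in both.

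The nuclei of the 2 stages were sequenced to nearly the same depth. The median was 5142 UMIs per nucleus at GD17.5 (quartiles 3623 and 7644) and 5084 at PND2 (3626 and 7048), with ranges of 753 to 49425 and 759 to 41218. The median nucleus had 2501.5 detected rows at GD17.5 and 2502 at PND2. After each nucleus was thinned to 1500 UMIs, the medians were 1021 rows (985 to 1053) in 3971 nuclei and 1022 (986 to 1055) in 3278 nuclei, with 77 and 37 shallower nuclei left out. The difference of 1 row was far below the spread between nuclei. Vip+ neurons of the same libraries had 1020 and 999 rows at this depth, and the neuron clusters of PND10 and PND30 had 962 to 1063. GD17.5 had more of the deepest nuclei. Those with at least 12000 UMIs were 9.07% of the cluster at GD17.5, with 25% of its UMIs, and 5.55% at PND2, with 15.1%.

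**Figure D1:**
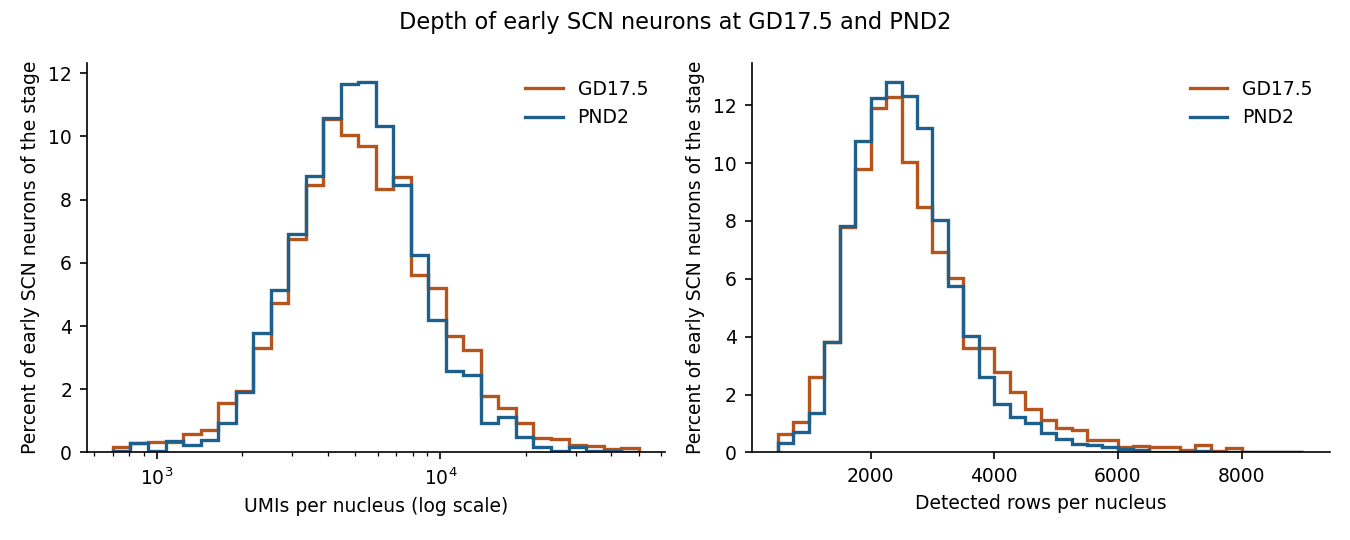
Percent of early SCN neurons of each stage by UMIs per nucleus (left, log scale) and by detected rows per nucleus (right), with GD17.5 in orange and PND2 in blue. The curves have nearly equal medians, 5142 and 5084 UMIs and 2501.5 and 2502 rows, and GD17.5 has the longer tail of deep nuclei.

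The summed counts of the cluster came to 25975777 UMIs (GD17.5) and 19391288 UMIs (PND2). With GD17.5 thinned to the PND2 total, 27408 rows were detected at GD17.5 and 27496 at PND2. The most abundant row took 2.42% (GD17.5) and 2.27% (PND2) of all UMIs, the top 100 rows took 22.6% and 24.3%, and the stages shared 88 of these 100 rows. In 3278 thinned nuclei per stage, 12 rows were detected in at least 90% of nuclei at GD17.5 and 21 rows at PND2.

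Levels were compared with the counts of the cluster scaled to a total of 1000000 (CPM), as the log2 ratio of CPM + 1, over the 11978 rows with a mean of at least 5 CPM. Most rows had like levels at the 2 stages: 52.3% were within 1.2-fold, the median log2 ratio was -0.07, and the percentiles at 5% and 95% were -0.72 and 0.74. In all, 289 rows (2.41%) were more than 2-fold higher at PND2 and 292 rows (2.44%) more than 2-fold lower, together 4.85%. Past 4-fold there were 41 higher and 70 lower rows. The counting interval of the ratio left out no change for all 581 rows, and for 206 of the higher and 229 of the lower rows it lay wholly past 2-fold. Of the 289 rows higher at PND2, 160 were between 5 and 20 CPM and 34 at 100 CPM or more, where all 11978 rows had 4852 and 2035. Among the 292 lower rows, 140 were between 5 and 20 CPM and 46 at 100 CPM or more. Rows lower at PND2 held 3.62% of all UMIs at GD17.5 and 1.24% at PND2, and rows higher at PND2 held 0.866% and 2.25%. The counts depended on the settings: with a pseudocount of 5 CPM, 169 rows were higher and 206 lower.

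**Figure D2:**
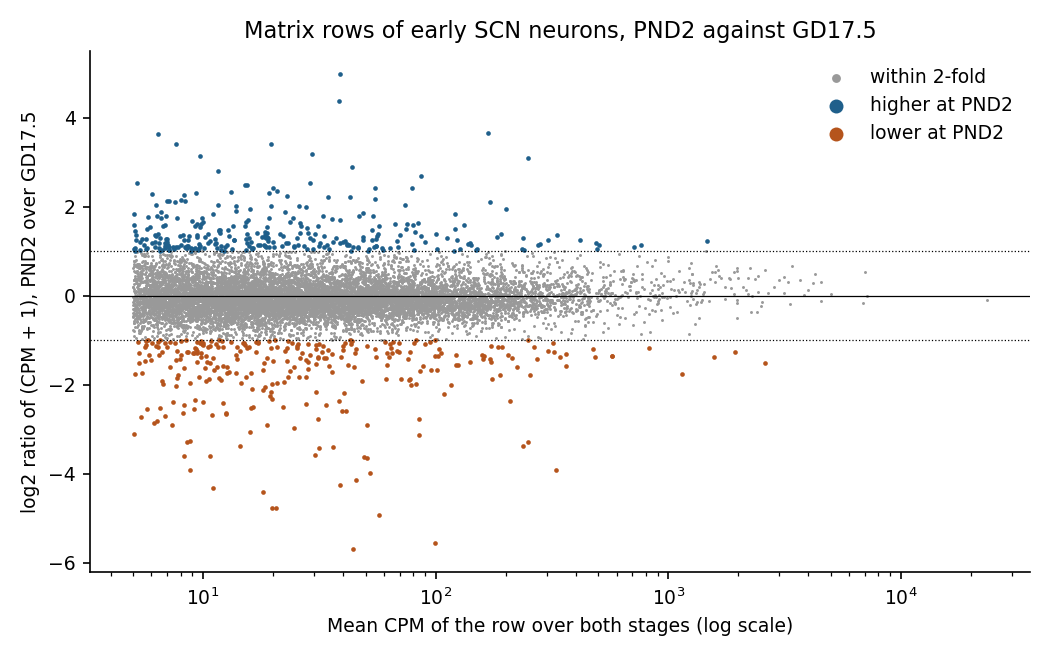
Each point is 1 of 11978 matrix rows of early SCN neurons, with its mean CPM over both stages on the x axis (log scale) and the log2 ratio of CPM + 1, PND2 over GD17.5, on the y axis. Dotted lines mark 2-fold, with 289 rows above them and 292 below, and the rows farthest from 0 lie on the side of GD17.5.

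Across all 7126 rows with a mean of at least 20 CPM, the median row was detected in 7.99% of thinned nuclei at GD17.5 and 7.75% at PND2. The rows higher at PND2 (129 at this level) were detected in a median of 3.51% of nuclei at GD17.5 and 9.55% at PND2. Those lower at PND2 (152 rows) were detected in 11.2% and 3.97%. The lower rows were also unevenly spread over the nuclei of GD17.5. A Fano factor (variance over mean) of at least 1.5 was found for 77 of 152 of them at GD17.5 (50.7%), against 461 of all 7126 rows at this level (6.47%). At PND2 it was found for 34 of the 152, and for 321 of all 7126 rows (4.5%). Among the 129 higher rows the number was 20 at GD17.5 and 24 at PND2. The rows were chosen on their means at these stages, so these values describe them and test nothing.

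The rows described singly are given by their position in the matrix, counted from 1, and are those with the largest ratios among those with a mean of at least 20 CPM. Row 3811 had 38 UMIs at GD17.5 (1.46 CPM) and 1474 at PND2 (76.0 CPM), a log2 ratio of 4.97, and was detected in 0.252% and 5.46% of thinned nuclei. At PND10 it was at 127 CPM and 11.7 CPM in the extra-SCN neurons of the 2 libraries, and at PND30 it was below 1 CPM in every neuron cluster. Row 3434 had 68 UMIs at GD17.5 (2.62 CPM) and 1431 at PND2 (73.8 CPM), a log2 ratio of 4.37. Vip+ neurons of the same libraries had more of it, with 230 CPM at GD17.5 and 441 CPM at PND2. In Avp+ neurons it was at 1838 to 3576 CPM in the 4 later libraries, in extra-SCN neurons at 247 to 1440 CPM, and in Vip+ neurons at 91.6 to 168 CPM. At PND30 the Cck+ neurons had 684 and 802 CPM of it and the Nms+ neurons 271 CPM. Both rows were also higher at PND2 in barcodes with under 750 UMIs, which the annotation leaves out: row 3811 went from 5.45 to 84.2 CPM there and row 3434 from 21.8 to 186 CPM. The part of free RNA in these levels was not tested.

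Row 15679 fell the most, from 2274 UMIs (87.5 CPM) at GD17.5 to 14 (0.722 CPM) at PND2, a log2 ratio of -5.68, and from 8.61% to 0.122% of thinned nuclei. In later neurons it lay between 1.77 and 17.1 CPM in Avp+ nuclei and at or below 1.76 CPM in the other clusters. Row 24957 went from 5089 UMIs (196 CPM) to 62 (3.20 CPM), a log2 ratio of -5.55, and from 11.3% to 0.549% of thinned nuclei. At GD17.5 both rows were far higher in early SCN neurons than in Vip+ neurons, which had 1.57 CPM of row 15679 (2 UMIs) and 4.72 CPM of row 24957 (6 UMIs). Both rows also fell in barcodes with under 750 UMIs, row 15679 from 30.7 to 0.348 CPM and row 24957 from 23.8 to 1.22 CPM. In immature astroglia row 15679 went from 8.62 to 0.259 CPM and row 24957 from 6.27 to 4.14 CPM. The part of free RNA in these levels was not tested either. The 14 microglial nuclei of GD17.5 had 7 UMIs of row 24957, which is 120 CPM (48.1 to 246), an interval that holds the 196 CPM of early SCN neurons.

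The other clusters of the same libraries were read in 2 ways. With all sums thinned to 573667 UMIs and a mean of at least 50 CPM, 91 of 3858 rows (2.36%) were 2-fold higher at PND2 in early SCN neurons and 123 (3.19%) were lower. Vip+ neurons had 84 of 3810 higher (2.2%) and 61 lower (1.6%), and immature astroglia had 261 of 4204 higher (6.21%) and 198 lower (4.71%). NG2 cells and oligodendrocyte precursors (NG2/OPC) had 173 of 4102 higher (4.22%) and 293 lower (7.14%).

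The rows chosen in early SCN neurons were then read in these clusters, over the 3867 rows with at least 50 CPM. The 67 higher rows had a median log2 ratio of 1.25 in early SCN neurons themselves, 0.85 in Vip+ neurons, 1.06 in immature astroglia and 1.06 in NG2/OPC. The 84 lower rows had -1.38 in early SCN neurons, -0.28 in Vip+ neurons, -0.88 in immature astroglia and -0.89 in NG2/OPC. Over all 3867 rows the medians lay between -0.10 and 0.04 in every cluster. In Vip+ neurons 26 of the 67 rows were 2-fold higher, against 85 of all 3867, and 11 of the 84 were 2-fold lower, against 26 of all. Barcodes with under 750 UMIs moved the same way, with a median of 1.09 for the higher rows (67 of 67 above 0) and -1.12 for the lower rows (82 of 84 below 0). These clusters come from the same 2 libraries, so the changes are not independent of each other, and the part of free RNA or of a difference between the libraries was not tested.

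**Figure D3:**
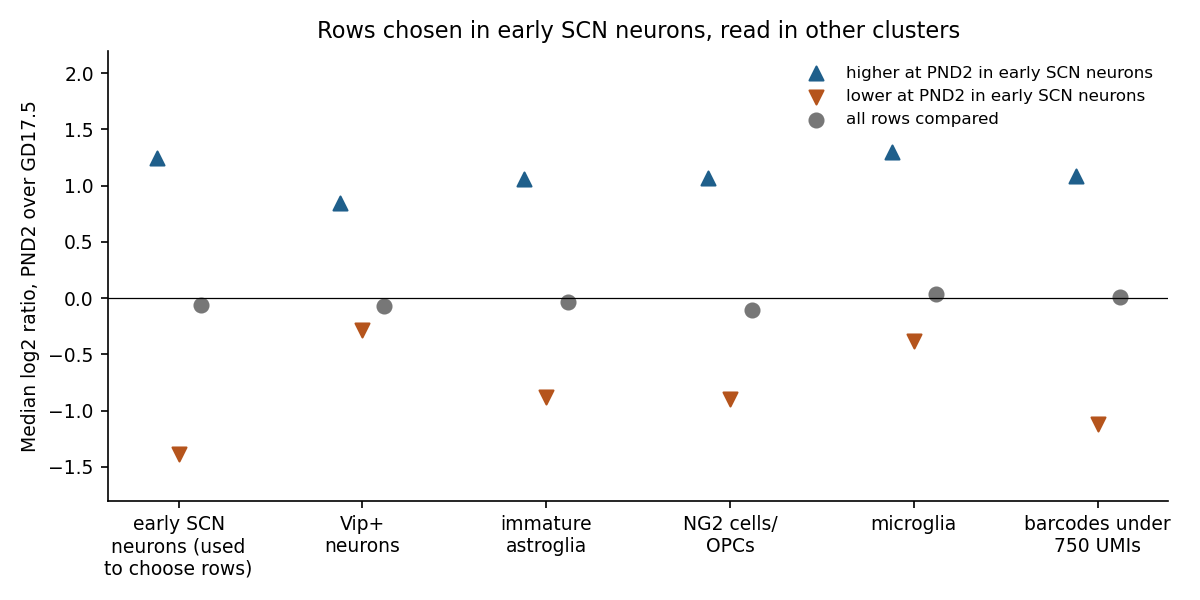
Median log2 ratio, PND2 over GD17.5, of the 67 rows that were higher (blue, upward) and the 84 that were lower (orange, downward) at PND2 in early SCN neurons, and of all 3867 rows compared (grey), in each cluster of the 2 libraries and in barcodes with under 750 UMIs. The higher rows sit between 0.85 and 1.30 in all groups, and the lower rows are nearest to 0 in Vip+ neurons, at -0.28.

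Nuclei of GD17.5 were more varied than those of PND2. The spread, measured as the mean squared distance of the thinned nuclei to the mean of their stage over 30 principal components, was 148 at GD17.5 and 102 at PND2 in 3278 nuclei each, a ratio of 0.691. Only 6.71% of the variance lay between the stages. Nuclei nevertheless lay mostly beside nuclei of their own stage: of the 20 nearest neighbours, 12.4% came from the other stage at GD17.5 and 8.04% at PND2, where full mixing gives 50%. With 100 nuclei per group in a space built from all stages, the spread of early SCN neurons went from 123 to 98.4, while that of Vip+ neurons went from 94.99 to 104. The neuron clusters of PND10 and PND30 lay between 65.9 and 115, so that early SCN neurons of GD17.5 had the widest spread of all groups compared.

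By whole profile, early SCN neurons lay closer to later extra-SCN neurons than to any later SCN cluster. Pearson's r of log2(CPM + 1) across 27795 rows, all sums thinned to 1147025 UMIs, was 0.934 to 0.947 with the extra-SCN neurons of the 4 later libraries at GD17.5 and 0.942 to 0.955 at PND2. With Vip+ neurons it was 0.925 to 0.938 and 0.932 to 0.944, and with Avp+ neurons 0.916 to 0.928 and 0.924 to 0.935. Cck+ neurons of PND30 gave 0.911 and 0.915 at GD17.5 and 0.916 and 0.921 at PND2, and Nms+ neurons gave 0.912 and 0.920. In each later library r was higher with extra-SCN than with Vip+ neurons, by 0.00857 ± 0.00096 (SD, n = 4 later libraries) at GD17.5 and by 0.0109 ± 0.00062 at PND2. This SD is over the libraries of PND10 and PND30 together and holds no variation of the single early library. The profile of PND2 was closer than that of GD17.5 to every later cluster. Vip+ neurons of the 2 early libraries had the other order, with a higher r for later Vip+ neurons (0.943 to 0.957) than for extra-SCN neurons (0.935 to 0.944). At GD17.5, r with the extra-SCN neurons of PND30 was 0.934 and 0.935 in early SCN neurons and 0.935 and 0.937 in these Vip+ neurons, so the clusters did not stand apart by this value. The 2 stages of early SCN neurons had r = 0.955 with each other. With the Vip+ neurons of their own library, early SCN neurons had r = 0.948 at GD17.5 and 0.955 at PND2. At GD17.5 this was above the values with later extra-SCN neurons, 0.934 to 0.947. At PND2 it was nearly equal to the highest of them, 0.9549 against 0.9551 in a range from 0.942. Profiles of 1 library share its stage and preparation, so the order above holds for later clusters only. Rows are not independent replicates, and r mixes shared abundant rows with cluster-specific ones.

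**Figure D4:**
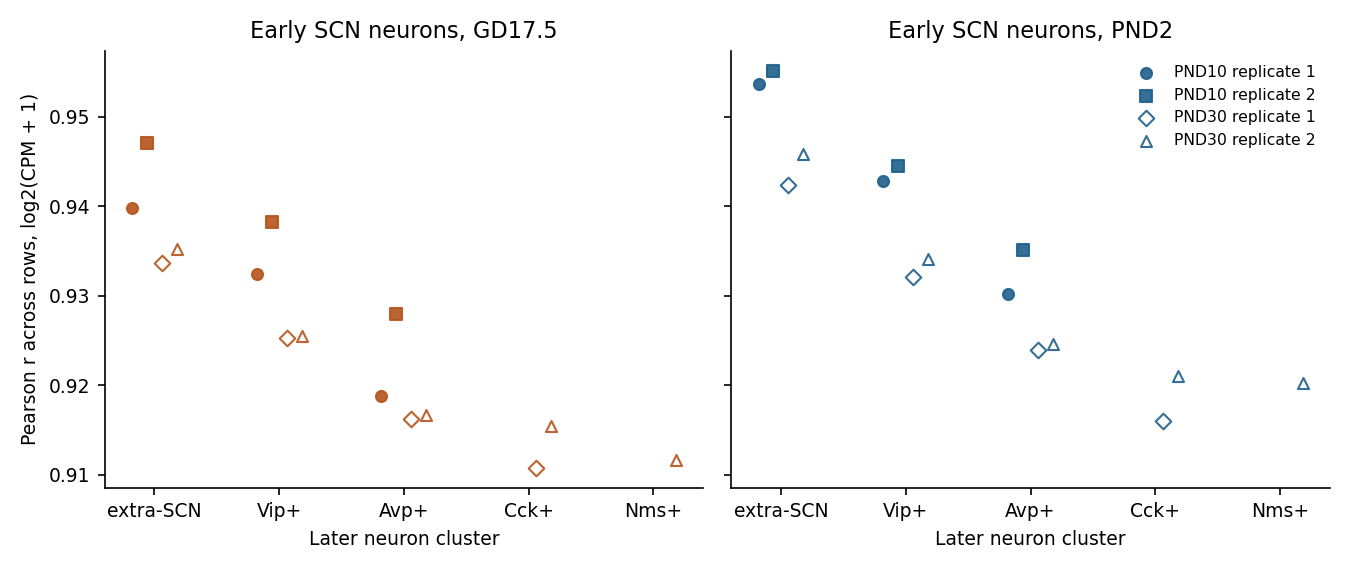
Pearson's r across 27795 rows between early SCN neurons (GD17.5 left, PND2 right) and each neuron cluster of the PND10 (filled) and PND30 (open) libraries with at least 50 nuclei. In both panels and all 4 libraries r falls from extra-SCN to Vip+ to Avp+ neurons, and PND2 lies above GD17.5 for every cluster; the y axis does not start at 0.

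Nuclei were also placed one by one among 453 nuclei of each of the 5 neuron clusters of PND30. Of their 20 nearest neighbours, 86.5% were extra-SCN neurons at GD17.5 and 93.7% at PND2, where no preference gives 20%. Avp+ neurons took 7.57% and 3.12%, and Vip+ neurons 3.93% and 2.70%. This measure does not single out early SCN neurons, since nuclei that are not neurons also landed there: immature astroglia had 71.4% and 75.2% extra-SCN neighbours, and NG2/OPC nuclei 75.4% and 91.4%. Vip+ neurons of the same libraries had 4.58% and 5.84%. Without PND30 replicate 2 the shares in early SCN neurons were 69.3% and 81.8%. Nms+ neurons, with 7 nuclei in replicate 1, were then left out of the reference, which had 82 nuclei per cluster. The 20% of no preference does not apply to these shares.

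To separate neuronal from shared rows, 50 rows were taken per later cluster that were highest at PND30 against the other 4 neuron clusters and against glia. The glia were mature astrocytes, NG2/OPC, oligodendrocytes and microglia, so low sums in early NG2/OPC are partly built in. The 50 rows of extra-SCN neurons summed to 6035 CPM in early SCN neurons at GD17.5 (6005 to 6065) and to 7678 CPM at PND2 (7639 to 7717). They summed to 1821 and 2114 CPM in Vip+ neurons of the same libraries, to 1247 and 1726 CPM in immature astroglia, and to 1558 and 1547 CPM in NG2/OPC. In later libraries extra-SCN neurons had 8324 to 13997 CPM of them and the SCN clusters 594 to 1861 CPM. Early SCN neurons had 29 of the 50 rows at 20 CPM or more at GD17.5 and 35 at PND2, against 15 and 18 in Vip+ neurons. The most abundant row held 20.5% and 25.5% of their UMIs. The median thinned nucleus held 7 UMIs of these rows at GD17.5 (quartiles 4 and 11) and 10 at PND2 (7 and 14), against 2 in Vip+ neurons at both stages. By r, nuclei annotated as early SCN neurons were nearer to later extra-SCN neurons than to later SCN clusters, in part against the cluster name. They also held more of these rows than the Vip+ nuclei beside them. The rows were chosen for low levels in Vip+ neurons of PND30, so that contrast is partly built in. Of the Vip+ rows chosen in the same way, early SCN neurons had 9157 CPM at GD17.5 and 9564 CPM at PND2. The Vip+ nuclei had 11842 and 13213 CPM of them, and later extra-SCN neurons 6848 to 8939 CPM. A single row held 43.9% and 52.3% of the early SCN sums. With those Vip+ nuclei, an SCN cluster of the same stage, r was 0.948 at GD17.5 and 0.955 at PND2. The authors named the cluster from marker genes and looked for extra-SCN nuclei at every stage by markers of the surrounding hypothalamus. They also reported that the cluster held markers of several adult SCN populations. Low clock genes were a further check of theirs on extra-SCN neurons. In the early cluster clock genes were also low, except Rora and Rorb. The authors state that this had been described for the perinatal period, and propose that the cells were not yet mature. Those named genes could not be looked up here, and the part of tissue from around the SCN in these values was not tested.

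**Figure D5:**
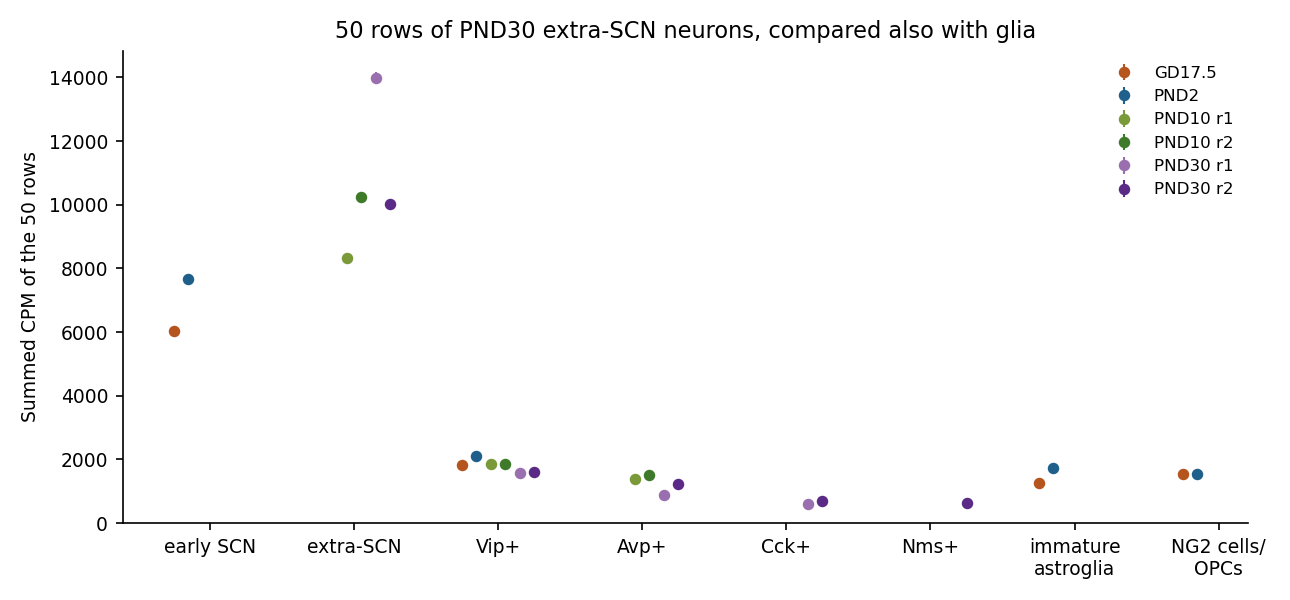
Summed CPM of the 50 rows that marked extra-SCN neurons at PND30 against other neurons and glia, by cluster (x axis) and library (colour, r1 and r2 being the replicates), with exact Poisson intervals smaller than most points. Early SCN neurons, at 6035 and 7678 CPM, lie above the Vip+ neurons of their own libraries, at 1821 and 2114 CPM, and below the later extra-SCN neurons, at 8324 to 13997 CPM; PND30 values are those that chose the rows.

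The rows of the SCN clusters gave no steady direction between the stages. Against the other neuron clusters alone, the 50 Avp+ rows went from 4161 to 5160 CPM in early SCN neurons, the 50 Vip+ rows from 5575 to 3870, the 50 Cck+ rows from 2145 to 2104 and the 50 Nms+ rows from 1206 to 1273. The extra-SCN rows chosen in this way went from 7266 to 7481 CPM. A single row held 40.9% of the Vip+ sum at GD17.5, and without it the sum went from 3297 to 2997 CPM. With rows compared also with glia, the Vip+ sum went the other way, from 9157 to 9564 CPM, and the Cck+ sum from 2847 to 2357. Of the Avp+ rows tested between the stages, 6 of 42 were 2-fold higher and 5 lower. The Vip+ rows had 5 of 43 higher and 5 lower, the Cck+ rows 3 of 38 and 4, the Nms+ rows 3 of 39 and 1, and the extra-SCN rows 9 of 47 and 7. Over all 11978 rows tested the shares were 2.41% higher and 2.44% lower. The median log2 ratios were 0.05, 0.05, 0.32, 0.09 and 0.29, beside -0.07 over all rows tested.

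Whether a nucleus held the rows of more than 1 later SCN population was asked with a level for each signature, the median of its own cluster at PND30, which was 31 UMIs for Avp+, 26 for Vip+, 13 for Cck+ and 18 for Nms+ rows in 1500 UMIs. At GD17.5, 247 of 3971 nuclei (6.22%) reached at least 1 of these levels, and at PND2 33 of 3278 (1.01%). Of the former, 190 reached the Vip+ level, where 1 row held 76.2% of their signature UMIs. At PND2, 2 nuclei reached the Vip+ level. In all, 11 nuclei of GD17.5 reached 2 or more levels, 0.277% (Clopper-Pearson interval 0.138% to 0.495%), where the product of the single shares gives 0.083%. This share rested on the number of rows per signature, with 2.04% for 20 rows and 0.0252% for 100 rows. None of 3278 did at PND2, which allows a share of up to 0.112%. In immature astroglia 0 of 474 and 0 of 657 nuclei reached any level. At this depth few nuclei of Vip+ neurons reached a level as well, 11.4% at GD17.5 and 13.6% at PND2. Of these Vip+ neurons 7.63% and 7.57% reached the Cck+ level, and only 2.97% and 2.23% the Vip+ level. In early SCN neurons the Vip+ level was reached by 4.78% and 0.061%, so at GD17.5 it did not mark the Vip+ cluster.

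The rows that differed between the stages were read in later Avp+ and Vip+ neurons. The 292 rows lower at PND2 were mostly low in these clusters too. Of them, 79.1% to 81.5% (231 to 238 rows) lay below the midpoint of GD17.5 and PND2 in both libraries of a later stage. All tested rows lower at PND2 by any amount gave 42.7% to 48.9%. The median of the 292 rows was 34.7 CPM at GD17.5, 9.15 CPM at PND2 and 4.88 to 8.54 CPM in the later clusters. Of the 289 rows higher at PND2, 46.0% lay above the midpoint in both libraries in Avp+ neurons of PND10, against 45.9% of all rows higher by any amount. The shares were 45.3% against 40.3% in Vip+ neurons of PND10. At PND30 they were 44.6% against 40.3% in Avp+ neurons and 47.8% against 40.6% in Vip+ neurons. The median of the 289 rows was 9.09 CPM at GD17.5, 26.5 CPM at PND2 and 14.9 to 23.8 CPM later. Rows with a high GD17.5 value were chosen for it, and the background of rows that differed by any amount is not matched on size. The later values come from other clusters, so stage and cluster cannot be told apart here. In Vip+ neurons the 84 lower rows of at least 50 CPM had medians of 52.7 and 40.6 CPM at GD17.5 and PND2. In early SCN neurons these medians were 177 and 56.8 CPM. Later extra-SCN neurons were not read in this way.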

How the data were processed

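The deposited counts are raw UMI counts per matrix row and barcode, made by the authors from 10x Genomics 3' snRNA-seq libraries with Cell Ranger 5.0.1 on mm10 and clustered with Seurat 4, per the labels and the methods. The authors kept nuclei with at least 750 UMIs and removed doublets by score before annotating clusters, and these clusters were used as deposited. Annotation suffixes were matched to stages by barcode; 6 nuclei of later stages could not be placed in 1 library. Members, lists and comparisons were chosen with earlier results of these data known.

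Counts were summed per cluster and library and expressed as CPM. No test was made, since GD17.5 and PND2 have 1 library each. Rows past 2-fold had a mean of at least 5 CPM, with a pseudocount of 1. Nuclei were thinned to 1500 UMIs without replacement, and 30 principal components of 2000 variable rows and 20 neighbours were used. Signature rows had at least 20 CPM in their cluster at PND30. By rule, at most 2 rows per direction were given by number. On simulated counts of 11935 rows for PND2 against GD17.5 in early SCN neurons, 192 of 200 rows changed 4-fold were recovered with 0 false calls; no difference between libraries beyond counting error was simulated. Alternatives changed the filter, pseudocount, normalization (TMM of edgeR 4.0.16, R 4.3.3), depth, components, neighbours and signature size. Python 3.11.15, numpy 2.4.6 and scipy 1.17.1 were used.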

Additional observations from a re-analysis of the deposited data

Results flagged for a closer look

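Between GD17.5 and PND2, 3 signatures moved in opposite directions in early SCN neurons and in Vip+ neurons of the same libraries, with counting intervals that did not overlap. The Avp+ rows had a log2 ratio (PND2 over GD17.5) of 0.31 in early SCN neurons and -0.12 in Vip+ neurons. The Vip+ rows had -0.53 in early SCN neurons and 0.31 in Vip+ neurons, and the Cck+ rows had -0.028 and 0.16. The spread of 100 nuclei per group also moved in opposite directions, with a ratio of 0.798 in early SCN neurons and 1.10 in Vip+ neurons. Each signature turned direction in early SCN neurons under at least 1 other choice of rows. None of these differences between the clusters was tested, because each stage has 1 library.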

How the results depend on the processing

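No paired analysis was possible because each early stage is a single library, which leaves nothing to pair or test. Of the alternatives, those without the nuclei at the Vip+ signature level, with rows also above glia and with the correlation of scores were chosen after seeing the data. The causes of the shifts below were not tested, except where fewer rows or libraries enter by construction. Depth limits rows below about 5 CPM and nuclei below 1500 UMIs.

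With a mean of at least 1 CPM, 443 rows were higher at PND2, with at least 20 CPM 129 were higher and 152 lower, and with a pseudocount of 5 CPM 169 were higher. Under the other settings tried, among them TMM, size factors, means over nuclei and nuclei of 3000 to 6000 UMIs, the number of rows stayed within 1.5 times, and no row called changed sign under any setting in which it was tested. The spread ratio was 0.509 with 10 principal components and below 1 in all settings. Neighbours from the other stage were 10.8% and 7.12% with 10 neighbours (GD17.5, then PND2), 15.1% and 10.0% with 50, 14.2% and 11.2% with 10 components, and 8.75% and 4.96% at 3000 UMIs. The excess of r with extra-SCN over Vip+ neurons was 0.0285 and 0.0339 with rows of at least 5 CPM, and 0.0127 for Spearman's rho at PND2, above 0 in every library.

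Extra-SCN neighbours were 87.8% at GD17.5 with 10 neighbours, 84.4% and 92.5% with 50, 95.2% and 97.2% with 10 components, and 93.8% and 96.1% by the correlation of scores. Leaving out 1 PND30 library gave 69.3% to 89.6% and 81.8% to 92.4%. The reference then had fewer nuclei per cluster, and without replicate 2 it had no Nms+ neurons.

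The log2 ratios of the Avp+, Vip+, Cck+, Nms+ and extra-SCN signatures were 0.31, -0.53, -0.03, 0.08 and 0.04. With 20 rows they were 0.59, -1.13, 0.13, -0.35 and -0.36, with 100 rows -0.23, -0.11, -0.24, 0.19 and 0.14, and with rows also above glia 0.22, 0.063, -0.27, 0.20 and 0.35. Leaving out 1 PND30 library gave 0.040 to 0.47, -0.76 to -0.43, -0.19 to 0.049, 0.08 (for Nms+ rows only replicate 1 could be left out, since it has too few Nms+ nuclei to stand alone) and -0.065 to 0.16. The direction thus turned for each of the 5 signatures under at least 1 setting. Nuclei with 2 or more signatures at GD17.5 were 0.117% at 3000 UMIs, 2.04% with 20 rows and 0.0252% with 100 rows.

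With at least 20 CPM, 51.9% of the rows higher at PND2 lay on its side in Avp+ neurons of PND30, and 75.7% of the lower rows did in Vip+ neurons of PND30. At this level the rows that differed by any amount gave 40.6% and 47.7%. In Vip+ neurons of PND30 the higher rows gave 53.5% against 41.1%. With 1 library per later stage, where fewer libraries must pass, the higher rows gave 50.5% to 58.8% and 50.5% to 54.3% in Avp+ and Vip+ neurons of PND10, and 51.6% to 57.8% and 52.2% to 63.0% at PND30. The lower rows gave 82.5% to 86.3% and 85.6% to 88.4% at PND10, and 82.5% to 86.3% and 84.6% to 87.0% at PND30. All rows that differed by any amount gave 47.0% to 54.4% (higher) and 49.2% to 61.9% (lower) in the same way.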
